A study of Mus musculus with 16 samples.

Results

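The genes described here are 45 mouse genes of the interferon response and of antigen presentation, taken by name from a fixed list that was drawn up with earlier results of these data known. They comprise 6 transcription factors of the response, 24 genes that type I interferon induces or that sense the nucleic acids which start it, 6 interferon-induced GTPases and 9 genes that prepare and show peptides on MHC class I molecules. All 45 had a row among the 30386 genes of the expression table, and 36 of them passed the filter of more than 1 CPM (reads of a gene scaled to a common library total) in at least 4 of the 16 samples. The samples were cultures of neural stem and progenitor cells (NSPCs) derived from the subventricular zone (SVZ) of C57BL/6 J/Babr mice of 3 months of age. They carried either a constitutive *Dbx2* transgene (*Dbx2*-NSPCs, n = 8) or a *GFP* transgene as the control (*GFP*-NSPCs, n = 8). *Dbx2* is a homeobox transcription factor, and the study asked what its forced expression changes in these cells. Both groups had been transfected with a plasmid (pTP6-Dbx2 or pTP6-hrGFP), kept under puromycin, and grown without attachment in medium with EGF, FGF2 and heparin. No other allele or treatment was given for either group. The lines were bulk cultures from 2 independent derivations, with 1 *Dbx2* and 1 *GFP* line from each, so that replicates of a group are in part repeated cultures of the same line and the p-values below measure the spread between these samples. The labels number the samples of each group from 1 to 8 but do not give the line of a sample.

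Interferons are secreted proteins that warn cells of infection. Type I interferons bind the receptor made of IFNAR1 and IFNAR2, whose kinases JAK1 and TYK2 lead to a complex of STAT2 and IRF9 that binds a DNA element with repeated GAAA. Interferon gamma acts through another receptor and a palindrome called GAS, and it is the main inducer of the guanylate binding GTPases and of the MHC class I pathway. In that pathway the immunoproteasome cuts proteins, the TAP1 and TAP2 transporter moves peptides into the endoplasmic reticulum, tapasin loads them, and B2M pairs with the heavy chains H2-K and H2-D. Some of these genes, *Ifitm3* among them, are known for being expressed in stem cells without any interferon.

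The libraries were made with a kit that reads the end of each polyadenylated transcript, and held 1803928 to 3258885 reads on the listed genes in *GFP*-NSPCs and 2214008 to 3293285 in *Dbx2*-NSPCs. A floor of 3 reads, the limit that a count of 0 allows, corresponded to 0.911 to 1.66 CPM, and covers counting error only. *Dbx2* itself was at 77.2 ± 51.8 CPM in the *GFP*-NSPCs against 155 ± 35.4 CPM in the *Dbx2*-NSPCs (SD, n = 8 per group; 2-sided exact permutation test, p = 0.00357). In the samples numbered 1 to 4 it was at 89.3 to 171 CPM in the controls and 136 to 232 CPM with the transgene, a ratio of means of 1.44 with overlap. In those numbered 5 to 8 it was at 30.7 to 39.5 and 114.0 to 155 CPM, a ratio of 4.01 without overlap. The 8 markers of neural stem and progenitor cells summed to 5535 to 7249 CPM in *GFP*-NSPCs and 4366 to 5940 CPM in *Dbx2*-NSPCs. Of these 8, *Fabp7*, *Egfr* and *Slc1a3* were lower in *Dbx2*-NSPCs (log2 fold changes -0.72, -0.45 and -1.03, limma adjusted p = 0.0149, 0.00433 and 0.0259). That is 37.5%, against 7.78% of all tested genes. *Sox2* was lower only in fits such as that with the replicate number as a block (limma adjusted p = 0.000508). For *Nes* (0.03 and -0.65) and *Hes5* (-1.30 and 0.84) the log2 fold changes differed between the numbers 1 to 4 and 5 to 8 (limma adjusted p = 0.00488 and 0.00662). The 12 markers of microglia and macrophages, cells that express many interferon response genes, summed to 0 to 2.45 CPM and 0 to 2.89 CPM, and 6 of them, *Aif1*, *Tmem119*, *Itgam*, *C1qc*, *Fcrls* and *Tyrobp*, were at 0 in every sample. Of the 5 lymphocyte markers, 4 were at 0 in every sample. The 5 endothelial markers summed to 0.67 to 7.85 CPM in *GFP*-NSPCs and 4.23 to 18.6 CPM in *Dbx2*-NSPCs, with *Pecam1* at no more than 1.41 CPM and *Cldn5* and *Cdh5* at 0 in every sample. Only *Flt1* of these was called, at a log2 fold change of 2.29 (adjusted p from limma = 0.000347), and the part of these marker differences in the results below was not tested. The 5 pericyte and fibroblast markers summed to 0 to 1.64 CPM and 0.45 to 3.42 CPM.

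Samples numbered 1 to 4 stood apart from those numbered 5 to 8. Within *GFP*-NSPCs, which carry no *Dbx2* transgene, the values of the numbers 1 to 4 and 5 to 8 did not overlap for 28.9% of all tested genes and for 11 of the 36 tested members (30.6%). In 9 of these members the numbers 1 to 4 were higher (*Irf2*, *Isg15*, *Ifit1*, *Ifit3*, *Bst2*, *Tap2*, *B2m*, *H2-D1* and *H2-K1*), and in *Ifitm2* and *Ifitm3* the numbers 5 to 8 were higher. For *Isg15* and *Ifit1* the nearest samples of the 2 sets of numbers held the same number of reads and differed only in depth. Whether these sets are the 2 pairs of lines is not given by the labels, so that a difference between the sets and one between the line pairs cannot be told apart. The members called over all samples or between the sets are therefore also given within each set.

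The comparison of *Dbx2*-NSPCs with *GFP*-NSPCs was tested with limma on log2(CPM + 0.5) over the 12533 genes that passed the filter, and a gene is named as called where the Benjamini-Hochberg adjusted p over all of them was under 0.05. By this test 15.8% of all tested genes were called, 8.03% as higher and 7.78% as lower in *Dbx2*-NSPCs. Among the 36 tested members 5 were called (13.9%), which is near that background. *Ifitm3*, *Ifitm2*, *Ifit2* and *Tap1* were higher in *Dbx2*-NSPCs and *Gbp7* was lower. These are bulk cultures, so that fewer cells that express a gene and less RNA of it per cell cannot be told apart. In none of the 36 did the groups of 8 fail to overlap, against 3.41% of all tested genes, and 10 of the 36 had an unadjusted p under 0.05, against 29.2% of all tested genes. The members' fold changes ran from -1.09 to 3.80 on the log2 scale with a median of 0.20, and 23 of the 36 were above 0. Over all tested genes the median was -0.02 and 47.3% were above 0. The median size of the change, whatever its direction, was 0.39 in the members and 0.23 over all tested genes. In the fit with the replicate block, 8 members were called, 6 higher and 2 lower (22.2%, against 21.7% of all tested genes), the additional ones being *Rnf213*, *B2m* and *Stat2*. With the set of numbers as a covariate 11 were called (30.6%, against 24.2% of all tested genes), and *Irf2*, *Ifit1* and *Bst2* joined these as lower.

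**Figure D1:**
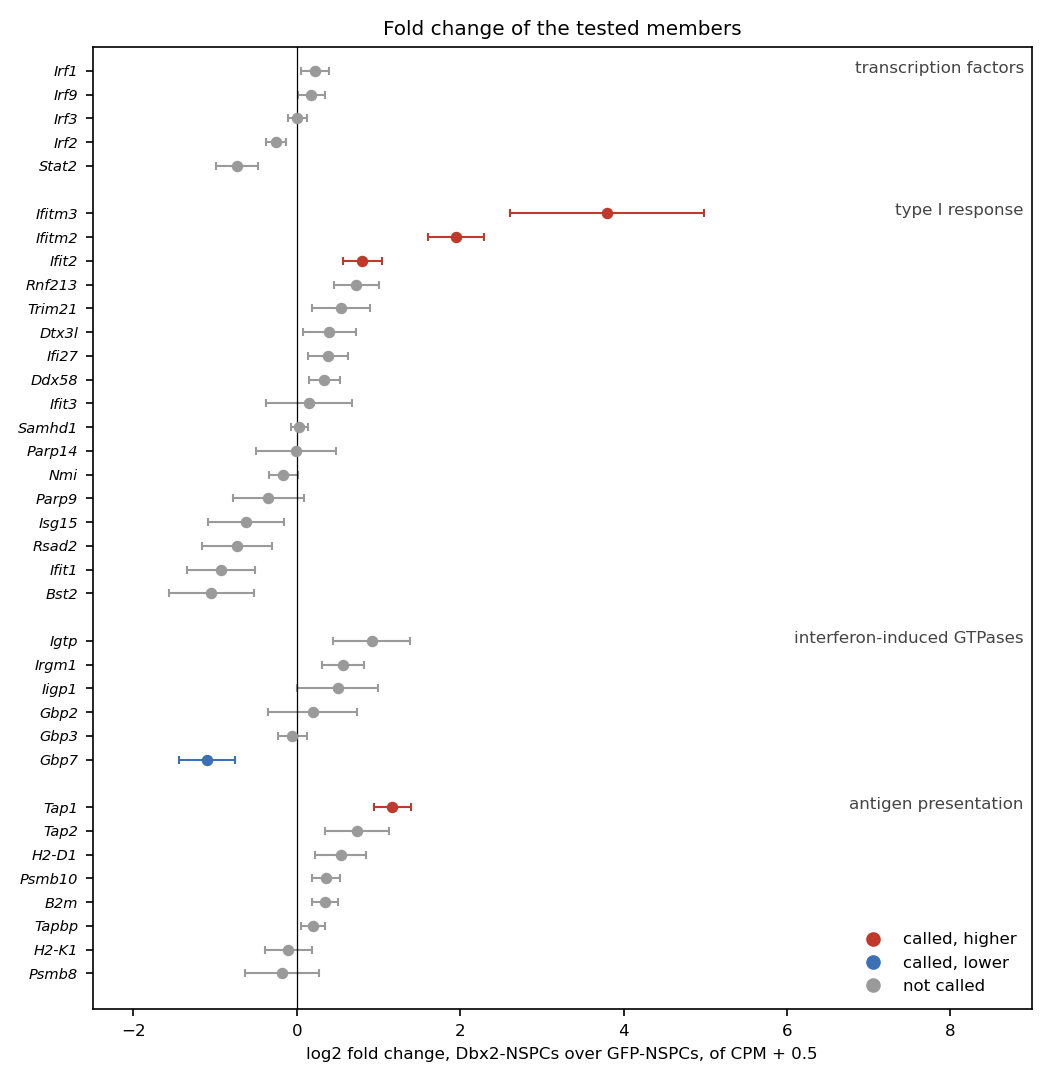
The log2 fold change of CPM + 0.5 (x axis, *Dbx2*-NSPCs over *GFP*-NSPCs, n = 8 each) for the 36 tested members, grouped by role and ordered by size, with bars for 1 standard error. *Ifitm3*, *Ifitm2*, *Ifit2* and *Tap1* (red) were called as higher, *Gbp7* (blue) as lower, and the 31 members in grey were not called. The means of *Ifit1* and *Iigp1* lay under the mean floor of 3 reads per library in both groups.

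Promoters were searched for the 2 elements of the response, since these are the letters through which interferon acts. The IRF core was written as AAANNGAAA and the GAS palindrome as TTCNNNGAA, where N is any base, on both strands, in the window of 250 bases before to 50 bases after each RefSeq start site (GRCm38.p6). A promoter was given for 38 of the 45 members, and 19 of these 38 genes (50%) held an IRF core, against 12.1% of 27025 genes. GAS was held by 10 of the 38 (26.3%), against 9.55%. Interferon-induced genes are known for these elements, so that the shares describe the list and not the comparison. Of the 5 called members, *Ifitm3* and *Gbp7* held both, *Ifitm2* held the IRF core, *Ifit2* held GAS and *Tap1* held neither. Their promoters are shown beside their values below, from 5′ to 3′ on the strand of the gene, with each match in capitals.

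*Ifitm3* and *Ifitm2* encode small membrane proteins that block the entry of viruses by fusion. They lie on the minus strand of chromosome 7, *Ifitm2* (ENSMUSG00000060591) from 140954837 to 140955987 and *Ifitm3* (ENSMUSG00000025492) from 141009586 to 141010770 (GRCm38), and they are close paralogs, whose reads could have been split or shared by the authors' counting. Both were higher in *Dbx2*-NSPCs, in 8 of 8 same-numbered comparisons each. Their promoters, at chr7:141010695-141010994 and chr7:140955912-140956211, both on the minus strand, hold the same IRF core letters close to the start site, and in *Ifitm3* a GAS match follows and overlaps a further IRF core.
Ifitm3: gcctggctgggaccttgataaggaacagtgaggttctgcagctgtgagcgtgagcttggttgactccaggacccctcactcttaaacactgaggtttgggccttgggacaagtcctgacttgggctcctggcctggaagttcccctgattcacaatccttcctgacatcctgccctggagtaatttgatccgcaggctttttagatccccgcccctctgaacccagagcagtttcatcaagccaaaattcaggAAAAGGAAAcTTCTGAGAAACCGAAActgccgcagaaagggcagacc
Ifitm2: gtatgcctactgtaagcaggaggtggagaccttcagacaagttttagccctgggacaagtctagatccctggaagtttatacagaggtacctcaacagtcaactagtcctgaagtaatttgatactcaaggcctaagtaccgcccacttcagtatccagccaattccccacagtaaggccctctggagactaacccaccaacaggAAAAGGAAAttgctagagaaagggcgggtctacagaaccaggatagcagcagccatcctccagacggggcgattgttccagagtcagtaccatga

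*Ifitm3* was at 1.21, 3.53, 5.21 and 5.33 CPM in *GFP*-NSPCs numbered 1 to 4 and at 610.1, 592, 493 and 538 CPM in those numbered 5 to 8. In *Dbx2*-NSPCs it was at 585, 542, 370.2 and 281 CPM in numbers 1 to 4 and at 1028, 942, 931 and 1051 CPM in numbers 5 to 8. The gene was thus at 5.33 CPM or less in 4 of the 8 control samples and at 281 CPM or more in the other 12, and within each set of numbers the groups did not overlap. In numbers 1 to 4 the mean was 3.82 ± 1.92 CPM in the *GFP*-NSPCs against 445 ± 143 CPM in the *Dbx2*-NSPCs (SD, n = 4 per group), a ratio of 116 and a log2 fold change of 6.78 (limma on these 8 samples, adjusted p = 4.92e-07). In numbers 5 to 8 the means were 558 ± 53.0 and 988 ± 60.5 CPM (SD, n = 4 per group), a ratio of 1.77 and 0.83 on the log2 scale (limma adjusted p = 5.41e-06). The difference between these fold changes was called (-5.95 on the log2 scale, standard error 0.36, limma adjusted p = 2.38e-11). Over all 16 samples the log2 fold change was 3.80 with a standard error of 1.19 (limma adjusted p = 0.0349). This pooled call was lost without any 1 of the *GFP*-NSPC replicates 1 to 4 or the *Dbx2*-NSPC replicates 5 to 8 (adjusted p = 0.0563 to 0.0704), and edgeR on the recovered reads and DESeq2 both gave 1.38 and did not call it (adjusted p = 0.304 and 0.355).

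*Ifitm2* had the same order of groups at a lower level. It was at 2.42, 2.82, 4.24 and 2.0 CPM in *GFP*-NSPCs numbered 1 to 4 and at 13.85, 7.05, 9.56 and 6.58 CPM in those numbered 5 to 8. In *Dbx2*-NSPCs it was at 29.86, 26.71, 24.42 and 8.61 CPM and then at 22.88, 21.74, 16.25 and 26.00 CPM. The 4 lowest samples were again the *GFP*-NSPCs numbered 1 to 4, and the groups overlapped only through *Dbx2*-NSPC replicate 4. It rose by 1.95 on the log2 scale (standard error 0.34, limma adjusted p = 0.000530), and in the sets of numbers it was 2.67 (limma adjusted p = 0.000685) and 1.23 (limma adjusted p = 0.00239). The difference between the sets was called at -1.44 (standard error 0.46, limma adjusted p = 0.0456), but not in 12 of the 16 fits that left out 1 sample (adjusted p up to 0.106). It stayed called only without *GFP*-NSPC replicate 3, 6 or 8 or *Dbx2*-NSPC replicate 4. The annotated gene *Gm45717* overlaps *Ifitm2* on the same strand.

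Most of the genes around this pair were not called. Within 500 kb of *Ifitm3* 26 other genes were tested, with a median log2 fold change of 0.17. Of these, 4 were called as higher and 0 as lower, a share near the 15.8% called over all tested genes. Those called were *Ifitm2* itself, *Pidd1* (0.70), *Cd151* (0.85) and *Tspan4* (0.81). The difference between the sets of numbers was called in 2 of the 26, against 9.44% of all tested genes. These were *Ifitm2* and *Cd151*, a tetraspanin. In *Cd151* the log2 fold change was 1.38 in numbers 1 to 4 and 0.33 in numbers 5 to 8.

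**Figure D2:**
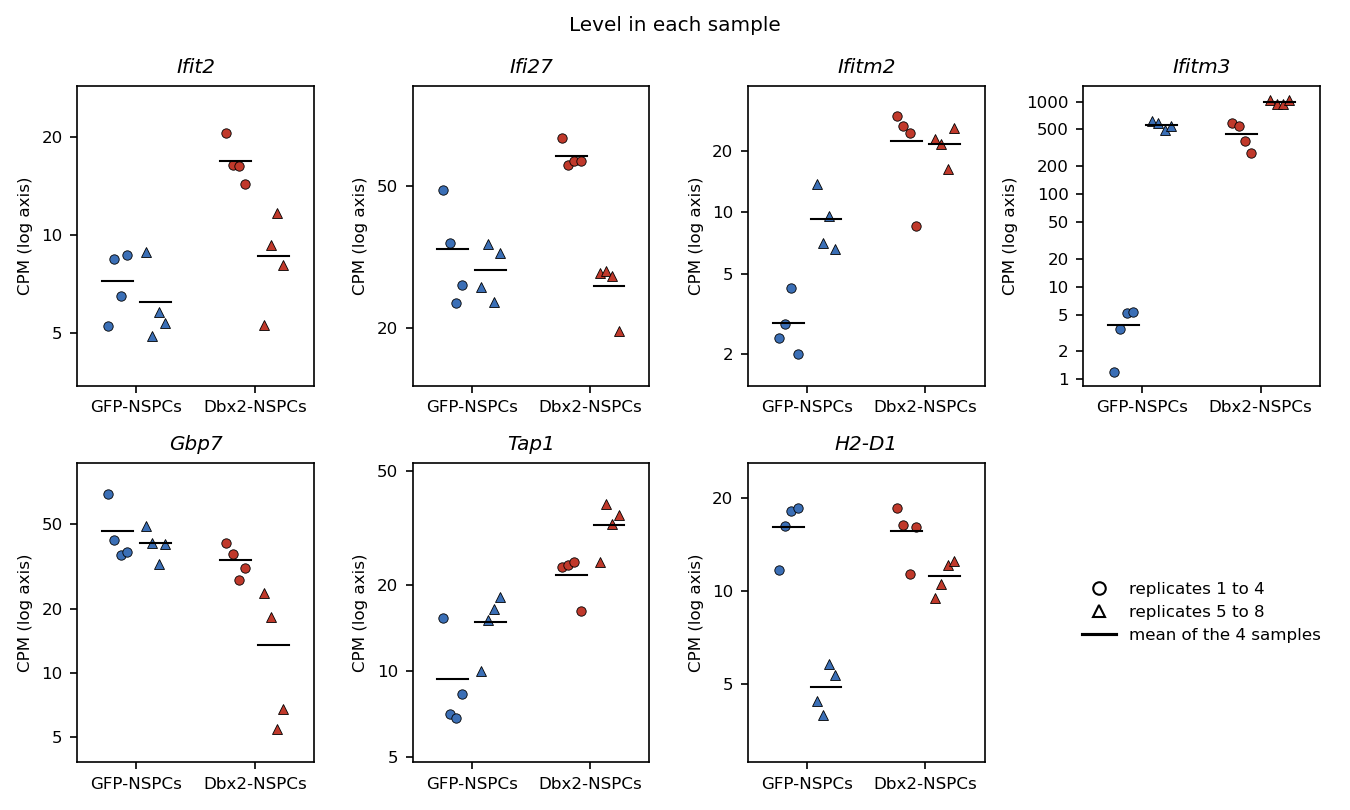
CPM on a log axis in each of the 16 samples for the members called between the groups or whose fold change differed between the sets of numbers; circles are replicates 1 to 4, triangles replicates 5 to 8, and lines the mean of the 4 samples. *Ifitm3* in *GFP*-NSPCs lies at 1.21 to 5.33 CPM in replicates 1 to 4 and at 493 to 610.1 CPM in replicates 5 to 8, whereas *Tap1* is raised by a like amount in both sets.

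*Ifit2* encodes a tetratricopeptide protein that binds RNA and restrains translation of viral RNA. It lies on the plus strand of chromosome 19 from 34550694 to 34576419 (ENSMUSG00000045932), beside *Ifit3* and *Ifit1*. RefSeq gave 2 promoters, at chr19:34550444-34550743 and chr19:34550838-34551137, and GAS was found only in the first of these.
Ifit2 first start: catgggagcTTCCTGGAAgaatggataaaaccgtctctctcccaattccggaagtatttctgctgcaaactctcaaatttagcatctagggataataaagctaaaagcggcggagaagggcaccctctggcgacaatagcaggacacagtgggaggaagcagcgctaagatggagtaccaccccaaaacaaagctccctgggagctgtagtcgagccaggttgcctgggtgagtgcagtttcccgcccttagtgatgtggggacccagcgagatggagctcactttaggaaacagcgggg
Ifit2 second start: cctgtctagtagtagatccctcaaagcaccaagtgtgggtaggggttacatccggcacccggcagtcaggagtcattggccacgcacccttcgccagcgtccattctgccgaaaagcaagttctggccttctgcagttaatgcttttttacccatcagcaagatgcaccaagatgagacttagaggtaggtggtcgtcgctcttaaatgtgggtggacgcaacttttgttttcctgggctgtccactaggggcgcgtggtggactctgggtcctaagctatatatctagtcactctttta

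In *GFP*-NSPC replicates 1 to 8 *Ifit2* was at 5.24, 8.46, 6.52, 8.66, 8.87, 4.91, 5.81 and 5.35 CPM. The *Dbx2*-NSPC values, in the same order, were 20.55, 16.39, 16.28, 14.35, 5.28, 9.32, 11.74 and 8.10 CPM. The 4 samples of *Dbx2*-NSPCs numbered 1 to 4 were above every other sample, and in the numbers 5 to 8 the groups overlapped. Its log2 fold change was 0.80 (standard error 0.24, limma adjusted p = 0.0286) over all samples. Within the sets it was 1.19 in numbers 1 to 4 (limma adjusted p = 0.00480) and 0.42 in numbers 5 to 8 (limma adjusted p = 0.337), but the difference between them was not called (limma adjusted p = 0.238). The call was lost without *GFP*-NSPC replicate 6 or 8 or *Dbx2*-NSPC replicate 1, 2 or 3 (adjusted p = 0.0504 to 0.0582).

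Its neighbours in the family were not called over all samples. *Ifit1*, another RNA-binding protein of the family, was at 1.10 ± 0.99 CPM in the *GFP*-NSPCs against 0.24 ± 0.33 CPM in the *Dbx2*-NSPCs (SD, n = 8 per group), and was in none of the 8 same-numbered comparisons higher in *Dbx2*-NSPCs (limma adjusted p = 0.143). Both means lay under the mean floor of 3 reads per library. In the numbers 1 to 4 *GFP*-NSPCs were at 1.06 to 3 CPM and *Dbx2*-NSPCs at 0.30 to 0.96 CPM (log2 fold change -1.22, limma adjusted p = 0.0570). The nearest samples, *GFP*-NSPC replicate 2 and *Dbx2*-NSPC replicate 1, held 3 reads each, so the groups were not parted in reads. The gene passed the filter through the controls numbered 1 to 4 alone. *Ifit1* was called as lower with the set of numbers as a covariate (limma adjusted p = 0.0399, edgeR adjusted p = 0.0243). *Ifit3* was at 1.31 ± 1.77 and 1.31 ± 1.44 CPM (SD, n = 8 per group; limma adjusted p = 0.884), and its reads cannot be told apart with certainty from those of its near copy *Ifit3b*. Both genes hold a pair of IRF cores in their promoters.

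The other antiviral effectors, which act inside the infected cell, were at low or moderate levels. *Isg15*, a small protein attached to others like ubiquitin, was at no more than 4.67 CPM in any sample, at 1.18 ± 1.55 CPM in the *GFP*-NSPCs against 0.41 ± 0.48 CPM in the *Dbx2*-NSPCs (SD, n = 8 per group; log2 fold change -0.62, limma adjusted p = 0.402). *Bst2* (tetherin), which holds budding viruses at the membrane, was at 1.58 ± 1.53 and 0.40 ± 0.66 CPM, and *Rsad2* (viperin) at 6.19 ± 3.85 and 3.48 ± 2.59 CPM (SD, n = 8 per group). Neither was called (log2 fold changes -1.05 and -0.73, limma adjusted p = 0.191 and 0.276), although *Bst2* was called as lower in the numbers 1 to 4 alone (-1.59, limma adjusted p = 0.0421) and with the set of numbers as a covariate (limma adjusted p = 0.0362, edgeR adjusted p = 0.0272). *Samhd1*, which lowers the supply of nucleotides, was at 32.7 ± 4.81 and 33.3 ± 3.38 CPM (SD, n = 8 per group; limma adjusted p = 0.888).

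*Ifi27*, a mitochondrial protein induced by type I interferon, differed by the set of numbers. It was at 48.75, 34.56, 23.46 and 26.33 CPM in *GFP*-NSPCs numbered 1 to 4 and at 68.39, 57.36, 58.94 and 58.84 CPM in the *Dbx2*-NSPCs of the same numbers. In numbers 5 to 8 it was at 26.04, 34.35, 23.56 and 32.49 CPM and at 28.51, 28.89, 27.99 and 19.58 CPM. *Dbx2*-NSPCs were thus above the controls in the first set without overlap, and the groups overlapped in the other. Within the sets the log2 fold changes were 0.92 (limma adjusted p = 0.00870) and -0.15 (limma adjusted p = 0.596), and their difference was called (-1.06, standard error 0.27, limma adjusted p = 0.0102). Over all samples the gene was not called (0.38, limma adjusted p = 0.309).

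The sensors of viral RNA were represented by 3 members. *Ddx58*, which encodes RIG-I, was at 6.68 ± 1.16 and 8.76 ± 2.42 CPM (SD, n = 8 per group; log2 fold change 0.34, limma adjusted p = 0.246). *Ifih1*, which encodes MDA5, and its relative *Dhx58* did not pass the filter, at no more than 1.95 and 1.61 CPM. The same was true of *Irf7*, the master regulator of interferon production (at most 1.41 CPM), of *Ifi35* (1.41 CPM), *Oasl2* (1.67 CPM) and *Xaf1* (1.28 CPM), of *Usp18*, the enzyme that removes ISG15 (2.82 CPM), and of *Trim25*, a ligase that activates RIG-I (3.17 CPM). Each of these 8 genes had at most 9 reads in any sample. None was tested. In the numbers 1 to 4 *Trim25* was at 2.42, 3.17, 0.33 and 3.0 CPM in the controls and at 0.30 CPM or less in *Dbx2*-NSPCs. *Oasl2* was at 0.65 to 1.67 CPM and at 0.64 CPM or less there. For each gene the lowest of these controls and the highest *Dbx2*-NSPC sample held the same number of reads. The groups were thus not parted in reads. In the numbers 5 to 8 both genes were at 0.55 CPM or less in every sample.

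Among the enzymes that attach or remove ubiquitin, ISG15 or ADP-ribose, none was called over all samples. *Rnf213*, a large ubiquitin ligase, came closest, at 5.09 ± 2.32 CPM in the *GFP*-NSPCs against 8.10 ± 1.81 CPM in the *Dbx2*-NSPCs (SD, n = 8 per group; log2 fold change 0.73, limma adjusted p = 0.0804). It was higher in 7 of 8 same-numbered comparisons and was called with the replicate block (limma adjusted p = 0.0366). *Trim21*, *Parp9*, *Parp14* and *Dtx3l* stood at log2 fold changes of 0.54, -0.35, -0.01 and 0.40 with adjusted p in limma of 0.337, 0.650, 0.990 and 0.453. *Parp9* and *Dtx3l*, whose proteins work as a pair, lie head to head and overlap on opposite strands. *Nmi*, a partner of STAT proteins, was at 9.40 ± 2.20 and 8.35 ± 1.90 CPM (SD, n = 8 per group; limma adjusted p = 0.578).

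No transcription factor of the response was called over all samples. *Stat2*, the STAT that is particular to type I and type III interferon, was at 20.14, 32.45, 22.81, 15, 12.74, 17.18, 13.32 and 7.40 CPM in *GFP*-NSPC replicates 1 to 8. The *Dbx2*-NSPC values, in the same order, were 14.45, 14.26, 11.40, 9.33, 5.63, 10.25, 8.58 and 6.42 CPM. It was lower in *Dbx2*-NSPCs in all 8 same-numbered comparisons, and the groups overlapped. Its log2 fold change was -0.73 (standard error 0.26, limma adjusted p = 0.0572), and the gene was called as lower with the replicate block (limma adjusted p = 0.00383), in edgeR on the recovered reads (adjusted p = 0.0460), and without *GFP*-NSPC replicate 8 or *Dbx2*-NSPC replicate 1 or 2 (limma adjusted p = 0.0140 to 0.0458). Of its partners, *Irf9* was at 11.1 ± 2.02 and 12.8 ± 2.91 CPM (SD, n = 8 per group; limma adjusted p = 0.524). *Irf1*, the activator that interferon gamma induces, had a log2 fold change of 0.23, and *Irf2*, its antagonist, one of -0.25 (limma adjusted p = 0.413 and 0.182). *Irf2* was called as lower with the set of numbers as a covariate (limma adjusted p = 0.0341). *Irf3*, which turns on the interferon beta gene, was at 44.4 ± 5.90 and 44.8 ± 6.62 CPM (SD, n = 8 per group; limma adjusted p = 0.976).

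The interferon-induced GTPases, which attack the vacuoles of intracellular microbes, were called in 1 case of 6 (16.7%, near the 15.8% of all tested genes). *Gbp7* (ENSMUSG00000040253), on the plus strand of chromosome 3 from 142530342 to 142550149, was the only member called as lower. Its promoter, at chr3:142530086-142530385, holds 2 GAS matches and, close by, an IRF core read on the other strand.
Gbp7: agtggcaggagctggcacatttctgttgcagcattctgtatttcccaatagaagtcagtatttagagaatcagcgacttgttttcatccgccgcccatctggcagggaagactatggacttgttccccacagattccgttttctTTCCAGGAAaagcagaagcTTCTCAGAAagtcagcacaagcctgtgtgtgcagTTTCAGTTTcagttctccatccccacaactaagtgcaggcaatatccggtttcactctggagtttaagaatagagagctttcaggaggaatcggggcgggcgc

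*Gbp7* was at 69.29, 41.97, 35.84, 36.99, 48.76, 40.79, 32.44 and 40.30 CPM in *GFP*-NSPC replicates 1 to 8. The *Dbx2*-NSPC values, in the same order, were 40.45, 36.12, 27.35, 30.86, 23.58, 18.33, 5.42 and 6.75 CPM. All 4 samples of *Dbx2*-NSPCs numbered 5 to 8 were below every control, whereas in numbers 1 to 4 the groups overlapped. Its log2 fold change was -1.09 over all samples (standard error 0.34, limma adjusted p = 0.0350), -0.41 in numbers 1 to 4 (limma adjusted p = 0.225) and -1.78 in numbers 5 to 8 (limma adjusted p = 0.00279), and it was below 0 in all 8 same-numbered comparisons. The difference between the sets was called at -1.38 (limma adjusted p = 0.0478), and lost that call in 12 of the 16 fits that left out 1 sample (adjusted p up to 0.122), the exceptions being *GFP*-NSPC replicate 1 and *Dbx2*-NSPC replicates 4, 5 and 6. The fall over all samples was not called in edgeR on the recovered reads (adjusted p = 0.0728) or without *GFP*-NSPC replicate 1, 2, 5 or 6 or *Dbx2*-NSPC replicate 6, 7 or 8 (limma adjusted p = 0.0509 to 0.0639). *Gm43802* overlaps the gene on the same strand.

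The adjacent genes *Gbp3* and *Gbp2*, to the right of *Gbp7* on the chromosome, were not called. *Gbp3* was at 11.3 ± 2.09 and 11.1 ± 2.99 CPM and *Gbp2* at 3.00 ± 2.72 and 4.21 ± 3.75 CPM (SD, n = 8 per group; limma adjusted p = 0.880 and 0.850). Within 500 kb of *Gbp7*, 7 other genes were tested, and of these *Pdlim5* was called as higher (log2 fold change 0.42) and *Bmpr1b* (-1.37) and *Gtf2b* (-0.67) as lower. Over all tested genes 15.8% were called, and 7 genes are too few to compare with that share. *Igtp*, *Iigp1* and *Irgm1*, GTPases of the other family, were at 0.90 ± 0.59, 0.35 ± 0.49 and 3.37 ± 1.79 CPM in *GFP*-NSPCs and at 2.64 ± 2.11, 0.98 ± 1.26 and 4.86 ± 1.17 CPM in *Dbx2*-NSPCs (SD, n = 8 per group). None was called (limma adjusted p = 0.206, 0.550 and 0.154), although *Igtp* was called in the numbers 1 to 4 alone (1.52, limma adjusted p = 0.0328) and without *Dbx2*-NSPC replicate 8 (1.24, limma adjusted p = 0.0452). *Igtp* overlaps its relative *Irgm2* on the same strand, and *Iigp1* lay under the mean floor of 3 reads per library in both group means.

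Of the antigen presentation genes, *Tap1* was higher in *Dbx2*-NSPCs. *Tap1* encodes a chain of the transporter that brings peptides to MHC class I molecules. It lies in the MHC on the plus strand of chromosome 17 from 34187553 to 34197225 (ENSMUSG00000037321) and overlaps the immunoproteasome gene *Psmb9* at its start on the opposite strand. Its promoter, at chr17:34187306-34187605, holds neither of the searched elements.
Tap1: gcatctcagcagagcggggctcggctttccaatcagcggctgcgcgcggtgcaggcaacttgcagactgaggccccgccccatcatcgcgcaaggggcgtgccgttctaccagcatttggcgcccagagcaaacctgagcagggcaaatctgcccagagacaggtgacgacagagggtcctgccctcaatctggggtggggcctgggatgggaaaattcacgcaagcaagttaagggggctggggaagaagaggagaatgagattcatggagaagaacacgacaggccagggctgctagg

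*Tap1* was at 15.31, 7.05, 6.84, 8.33, 9.97, 15.03, 16.39 and 18.09 CPM in *GFP*-NSPC replicates 1 to 8. The *Dbx2*-NSPC values, in the same order, were 23.12, 23.37, 24.10, 16.15, 23.93, 38.21, 32.50 and 35.11 CPM. The groups did not overlap within either set of numbers, and over all samples only *Dbx2*-NSPC replicate 4 lay below the highest controls. The log2 fold change was 1.17 (standard error 0.22, limma adjusted p = 0.00130), with 1.22 in numbers 1 to 4 and 1.11 in numbers 5 to 8 (limma adjusted p = 0.00873 and 0.00134). The difference between these was not called (-0.11, standard error 0.34, limma adjusted p = 0.895). Without any 1 sample the fold change ran from 1.07 to 1.27 and stayed called. Within 500 kb of it 41 other genes were tested, with a median log2 fold change of -0.05, and 4 of them were called as higher, *March2* (0.48), *Kank3* (1.03) and the MHC class II genes *H2-Ab1* (1.46) and *H2-DMb1*. The share called among the 41 was below the 15.8% of all tested genes.

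The partner of *Tap1* and the immunoproteasome were not called. *Tap2* was at 2.48 ± 1.99 CPM in the *GFP*-NSPCs against 4.26 ± 2.49 CPM in the *Dbx2*-NSPCs (SD, n = 8 per group; log2 fold change 0.74, limma adjusted p = 0.223), was higher in 7 of 8 same-numbered comparisons, and was called in the numbers 5 to 8 alone (1.25, limma adjusted p = 0.0388). *Tapbp*, which encodes tapasin, was at 39.5 ± 6.88 and 45.9 ± 10.8 CPM (SD, n = 8 per group; limma adjusted p = 0.395). *Psmb10*, an immunoproteasome subunit, was at 28.3 ± 7.87 and 36.0 ± 7.99 CPM (SD, n = 8 per group; log2 fold change 0.36, limma adjusted p = 0.180) and was higher in all 8 same-numbered comparisons. *Psmb8* was at 2.25 ± 1.43 and 2.06 ± 1.52 CPM (SD, n = 8 per group; limma adjusted p = 0.832), and *Psmb9* did not pass the filter, at no more than 3.85 CPM and 12 reads.

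*B2m*, the light chain of MHC class I, was at 309, 252, 268, 248, 213, 205, 188 and 202 CPM in *GFP*-NSPC replicates 1 to 8. The *Dbx2*-NSPC values, in the same order, were 487, 417, 346, 225, 233, 262, 262 and 229.6 CPM. It was higher in 7 of 8 same-numbered comparisons, with a log2 fold change of 0.34 (standard error 0.16) that was not called over all samples (limma adjusted p = 0.149) and was called with the replicate block (limma adjusted p = 0.0152). In the numbers 5 to 8 the groups did not overlap (0.29, limma adjusted p = 0.0156).

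*H2-D1* and *H2-K1* encode the classical heavy chains, and because their sequences are alike their counts are uncertain. *H2-D1* was at 11.68, 16.22, 18.25 and 18.66 CPM in *GFP*-NSPCs numbered 1 to 4 and at 18.62, 16.39, 11.40 and 16.15 CPM in the *Dbx2*-NSPCs of the same numbers. In numbers 5 to 8 it was at 4.43, 3.99, 5.81 and 5.35 CPM and at 9.50, 10.56, 12.19 and 12.49 CPM. The controls numbered 5 to 8 were thus the lowest of all samples, and *Dbx2*-NSPCs exceeded them without overlap. The log2 fold changes were -0.05 (limma adjusted p = 0.915) and 1.12 (limma adjusted p = 0.00334), and their difference was called (1.17, standard error 0.32, limma adjusted p = 0.0187), but not without *Dbx2*-NSPC replicate 3 (adjusted p = 0.0518). Over all samples *H2-D1* was not called (0.54, limma adjusted p = 0.266). *H2-K1* was at 26.4 ± 13.1 and 23.1 ± 8.94 CPM (SD, n = 8 per group; limma adjusted p = 0.857), with *GFP*-NSPCs at 33.9 to 43.0 CPM in numbers 1 to 4 and at 12.7 to 19.3 CPM in numbers 5 to 8.

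**Figure D3:**
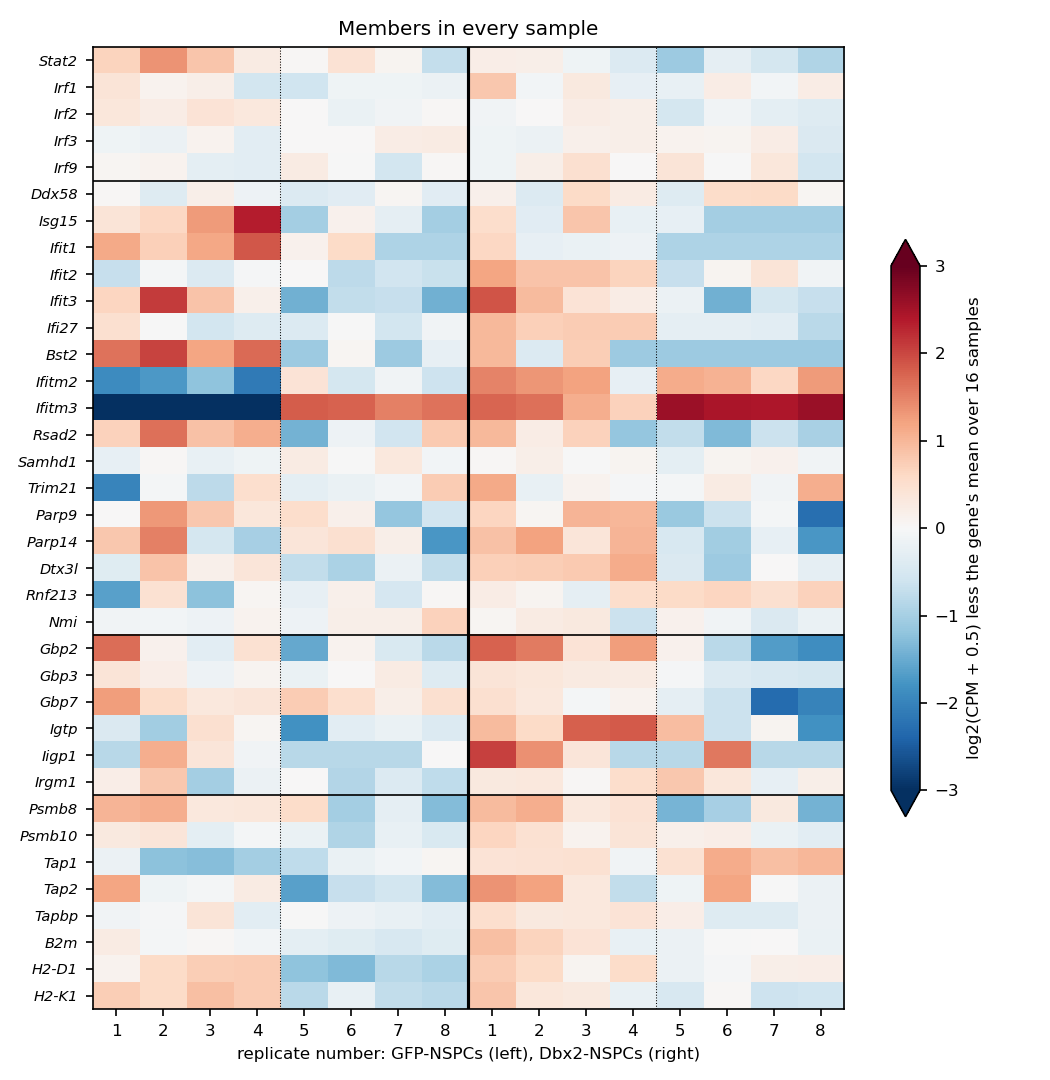
The 36 tested members (rows, in the order of their roles) in the 16 samples (columns, by replicate number, *GFP*-NSPCs on the left and *Dbx2*-NSPCs on the right), as log2(CPM + 0.5) less the gene's mean. *Ifitm3* and *Ifitm2* are lowest in *GFP*-NSPCs numbered 1 to 4, where *Isg15*, *Ifit1* and *Bst2* are highest on average.

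In all, the difference between the fold changes of the 2 sets of numbers was called in 5 of the 36 tested members (13.9%), against 9.44% of all tested genes. These were *Ifitm3*, *Ifitm2*, *Ifi27*, *Gbp7* and *H2-D1*. In the numbers 1 to 4 alone 8 members were called, 6 of them higher (22.2%, against 15.6% of all tested genes). In the numbers 5 to 8 alone 8 members were called, 7 of them higher (22.2%, against 23.2%). Called as higher in both sets were *Ifitm2*, *Ifitm3* and *Tap1*. The former set added *Ifit2*, *Ifi27* and *Igtp* as higher and *Stat2* and *Bst2* as lower, and the latter added *Rnf213*, *Tap2*, *B2m* and *H2-D1* as higher and *Gbp7* as lower.

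**Figure D4:**
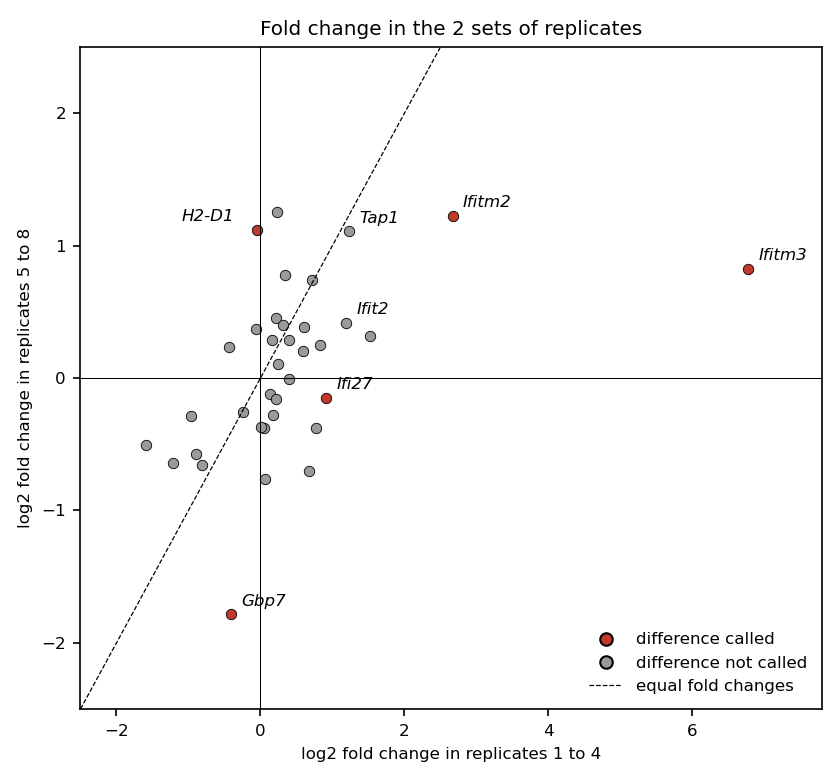
The log2 fold change (*Dbx2*-NSPCs over *GFP*-NSPCs, 4 samples against 4) of each tested member in replicates 1 to 4 (x axis) and in replicates 5 to 8 (y axis); the dashed line marks equal values. *Ifitm3* lies far to the right, at 6.78 and 0.83, *Tap1* lies near the line, at 1.22 and 1.11, and the 5 members whose difference was called are in red.

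The other genes of the pathway were taken from a list of 149 that had a row in the table, of which 75 passed the filter. Of these 75, 17 were called as higher and 1 as lower in *Dbx2*-NSPCs (24%), against 15.8% of all tested genes. With the replicate block 23 and 4 were called (36%, against 21.7% of all tested genes in that fit). Among the 17 called as higher, *Trim30a*, *Ifi204*, *Sp110*, *Nlrc5* and *H2-DMb1* passed the filter through *Dbx2*-NSPC samples alone. For such genes the filter favours a call as higher, which limits what these shares can show. The median log2 fold change of the 75 was 0.18, and 50 were above 0. Of the 18 called genes, 5 were also called in both sets of numbers (*Trim30a*, *Nlrx1*, *Tlr3*, *Trim30d* and *Shisa5*), 6 only in the numbers 1 to 4, 5 only in the numbers 5 to 8 and 2 in neither, while the difference between the sets was called in 0 of the 18. The list was put together with earlier results of these data known.

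No interferon was detected. All 14 interferon genes in the list, *Ifnb1* among them, were at 0 in every sample, which at the depth of these libraries allows up to 0.911 to 1.66 CPM in a sample. The receptor chains and the kinases named here were expressed and not called over all samples. *Ifnar1* was at 28.7 ± 7.59 and 27.2 ± 9.82 CPM, *Ifnar2* at 24.6 ± 5.0 and 28.8 ± 3.95 CPM, *Ifngr1* at 20.6 ± 6.89 and 22 ± 2.55 CPM and *Ifngr2* at 11.7 ± 3.54 and 15.2 ± 3.46 CPM (SD, n = 8 per group), with limma adjusted p of 0.757, 0.270, 0.619 and 0.207. *Jak1*, *Jak2* and *Tyk2* stood at log2 fold changes of -0.17, -0.02 and 0.24 (adjusted p in limma = 0.196, 0.931 and 0.380). *Jak1* was called as lower in the numbers 1 to 4 alone (-0.35, limma adjusted p = 0.0207), and without *GFP*-NSPC replicate 8 (-0.23, limma adjusted p = 0.0482).

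Among the nucleic acid sensing genes and the inhibitors, every gene called over all samples was higher, while some fell within 1 set of numbers. *Tlr3*, a receptor for double-stranded RNA, was at 16.7 ± 4.61 CPM in the *GFP*-NSPCs against 33.0 ± 4.96 CPM in the *Dbx2*-NSPCs (SD, n = 8 per group; log2 fold change 1.0, limma adjusted p = 0.000237). *Nlrx1*, a mitochondrial protein that restrains the response, was at 11.9 ± 3.68 and 29.1 ± 5.24 CPM (SD, n = 8 per group; log2 fold change 1.29, limma adjusted p = 4.20e-05). *Mavs*, the adaptor of RIG-I and MDA5, and *Socs3*, an inhibitor of cytokine receptors, stood at log2 fold changes of 0.48 and 1.78 (adjusted p in limma = 0.0132 and 0.0166). Of the 10 tested genes of nucleic acid sensing 3 were called as higher and 0 as lower (30%, against 15.8% of all tested genes), and of the 6 tested inhibitors 2 and 0 (33.3%). With the replicate block 4 of the 10 were higher and 2 lower (60%, against 21.7%), and in 4 of the 10 the difference between the sets was called (40%, against 9.44%). *Mb21d1*, which encodes the DNA sensor cGAS, was at 5.83 to 9.42 CPM in controls numbered 5 to 8 and at 0 to 1.69 CPM in the *Dbx2*-NSPCs (log2 fold change -2.82, limma adjusted p = 0.000288), against -0.15 in the numbers 1 to 4 (limma adjusted p = 0.734). *Traf3*, a signalling adaptor, fell in the numbers 5 to 8 (-0.78, limma adjusted p = 8.74e-05) and was at -0.04 in the numbers 1 to 4 (limma adjusted p = 0.895). *Tmem173*, which encodes the adaptor STING, rose in both sets (1.60 and 0.41, limma adjusted p = 0.000946 and 0.00207). None of these 3 genes was called over all samples, and they were named after their values were seen.

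Among the other interferon-induced genes 27 were tested, of which 7 were called as higher and 1 as lower (29.6%, against 15.8% of all tested genes). *Trim30a*, *Ifi204* and *Sp110* were at 0 in all 8 *GFP*-NSPC samples and at 4.56 ± 2.42, 1.88 ± 1.69 and 1.57 ± 1.64 CPM in *Dbx2*-NSPCs (SD, n = 8), which is at least 4.01-, 1.65- and 1.38-fold higher when the controls are set at the mean floor of 3 reads per library (limma adjusted p = 1.57e-06, 0.00458 and 0.0167). These genes passed the filter through *Dbx2*-NSPC samples alone, so that they could only be called as higher. *Trim30d*, *Trim12a* and *Trim12c*, relatives of *Trim30a* in a family of near copies, stood at log2 fold changes of 1.83, 1.48 and 1.91 (adjusted p in limma = 0.000673, 0.0145 and 0.0200). These relatives may share reads, so their calls may not be separate ones in the shares given. *Trim12a* and *Trim12c* were called in the numbers 1 to 4 but not in 5 to 8 (limma adjusted p = 0.123 and 0.185). In edgeR *Trim12a* was not called (adjusted p = 0.05002). *Shisa5* was at 42.2 ± 9.39 and 75.4 ± 20 CPM (SD, n = 8 per group; log2 fold change 0.82, limma adjusted p = 0.00135). *Zc3hav1*, which encodes the antiviral protein ZAP, was at 19.2 ± 5.71 and 11 ± 2.94 CPM (SD, n = 8 per group) and was the 1 gene called as lower (-0.77, limma adjusted p = 0.0221). *Gbp9*, a further guanylate binding GTPase, was higher (1.24, limma adjusted p = 0.0139), whereas *Gbp7* was lower. Within the sets *Gbp9* was called only in the numbers 1 to 4 (limma adjusted p = 0.00747, against 0.253 in 5 to 8), and *Gbp7* only in the numbers 5 to 8. *Gbp9* shares its locus with *Gbp8* and *Gbp4* on the same strand.

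*Nlrc5*, the activator of MHC class I transcription, was at 0.08 ± 0.23 CPM in the *GFP*-NSPCs against 0.88 ± 0.48 CPM in the *Dbx2*-NSPCs (SD, n = 8 per group), with both means under the floor of 3 reads, and was called (limma adjusted p = 0.0114). It was above 1 CPM only in *Dbx2*-NSPC samples and so passed the filter through the group where it was higher. Of the 14 other antigen presentation genes that were tested, *Nlrc5* and the class I gene *H2-Q7* were called as higher (14.3%, near the 15.8% of all tested genes). Of the 3 tested genes of MHC class II, which professional antigen presenting cells use, *H2-Ab1* was at 1.17 ± 1.27 and 3.57 ± 1.55 CPM (SD, n = 8 per group, limma adjusted p = 0.00726). *H2-DMb1* was at 0.04 ± 0.12 and 1.0 ± 0.84 CPM (SD, n = 8 per group, limma adjusted p = 0.0327), with both means under the mean floor of 3 reads per library. It too passed the filter through *Dbx2*-NSPC samples alone. Within the sets of numbers, *Ifi204* (limma adjusted p = 0.00339 and 0.102) and *H2-DMb1* (0.00782 and 0.363) were called in 1 to 4 and not in 5 to 8. *Sp110* (0.386 and 0.000452), *H2-Ab1* (0.213 and 0.00216) and *Nlrc5* (0.256 and 0.00782) were called in 5 to 8 and not in 1 to 4.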

How the data were processed

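RNA from the 16 cultures had been made into 3′ end libraries and sequenced as single reads. The authors checked the reads with FastQC 0.11.8, trimmed them with bbduk, aligned them with STAR 2.5.0a to GRCm38 with Ensembl release 96 annotation, and tested the counts with edgeR 3.36. The counting tool and strand are not given in the sources used here. The authors deposited 1 table of CPM, rounded to 2 decimals, for 30386 genes; 0 of its sample columns were left out. In each sample 100% of the values above 0 were whole reads, within 0.01 CPM, once divided by the CPM of 1 read.

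Genes with over 1 CPM in at least 4 of 16 samples were tested by limma 3.58.1 (lmFit, eBayes with trend, 2-sided) on log2(CPM + 0.5) in R 4.3.3, so that a fold change understates the change of low genes. The study fitted the cell line as a covariate; the labels do not give it, and the main test has no covariate; the number set was fitted as an alternative, which called 3034 of all tested genes against 1982. The difference between the replicate numbers 1 to 4 and 5 to 8 was tested as an interaction. Replicate numbers come from the sample titles. Residuals from the group means of same-numbered samples correlated at 0.152 to 0.303 in the 8 pairs. The mean was 0.226, against 0.199 for other numbers of the same set and -0.206 for the other set. Only 6 of the 16 samples correlated best with their own number, so the likeness lay mostly within the sets. The replicate block and the same-numbered comparisons take the numbers to pair the samples, which these values show only weakly. No 2 of the 56 pairs of replicates agreed within sampling noise (lowest chi-square per degree of freedom 2.36).

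The members and the lists of other genes were chosen with earlier results of these data known. Values per sample are given for the members called between the groups or between the sets, and for *Stat2* and *B2m*, which were added after their values were seen; of the other pathway genes, up to 15 called ones and fixed receptors and kinases are named, and 2 genes of the lists are not reported here. The alternatives were pseudocounts of 0.1 and 2, no filter, a mean of at least 10 CPM, median-of-ratios and TMM scaling, a fit with the replicate block, eBayes without trend, the number set as a covariate, each set alone, leaving out each sample, and tests of the recovered reads with edgeR 4.0.16 or with DESeq2 1.42.0. The limma fits with and without the block, the interaction test, edgeR and DESeq2 were tested on simulated data. Positions are from GENCODE M21 and promoters from RefSeq. Python 3.11.15, pandas 2.3.3 and matplotlib 3.10.9 were used.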

Additional observations from a re-analysis of the deposited data

Results flagged for a closer look

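The difference between *Dbx2*-NSPCs and *GFP*-NSPCs was not the same in the replicate numbers 1 to 4 and 5 to 8 for 5 members, by limma's interaction test. The log2 fold change in numbers 5 to 8 less that in numbers 1 to 4 was -5.95 for *Ifitm3*, -1.44 for *Ifitm2*, -1.06 for *Ifi27*, -1.38 for *Gbp7* and 1.17 for *H2-D1* (adjusted p = 2.38e-11, 0.0456, 0.0102, 0.0478 and 0.0187).

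In 12 of 72 groups of 8 values, Dixon's test on the CPM flagged 1 sample as far above the rest. Its rate of about 1 in 20 by chance assumes normally distributed values. The CPM were not log-transformed for it, some were a few reads, and samples differed between the sets of numbers. Whether there are more such samples than by chance can therefore not be told from these 12 flags. In *GFP*-NSPCs these were *Gbp2* at 9.27 CPM (the next sample at 3.67), *Gbp7* at 69.29 (48.76), *Ifi27* at 48.75 (34.56), *Ifit3* at 5.29 (1.95), *Iigp1* at 1.41 (0.65), *Isg15* at 4.67 (1.95), *Nmi* at 14.39 (9.90), *Tap2* at 6.85 (3.33) and *Tapbp* at 54.74 (41.56). In *Dbx2*-NSPCs they were *Ifit1* at 0.96 CPM (0.36), *Ifit3* at 4.49 (2.12) and *Irf1* at 33.07 (23.12). Several of these rest on few reads, since 3 reads correspond to 0.911 to 1.66 CPM.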

How the results depend on the processing

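The numbers of called members were 4 higher and 1 lower. With the replicate numbers 5 to 8 alone, 7 members were higher. The members called as lower numbered 0 by eBayes without trend, 2 with the replicate block, 5 with the number set as a covariate (*Gbp7*, *Stat2*, *Irf2*, *Ifit1* and *Bst2*), 2 in the numbers 1 to 4 alone, 4 in edgeR with the number set and 2 in DESeq2. Of the other pathway genes, 17 were higher and 1 lower, against 5 and 2 at a mean of at least 10 CPM, where fewer genes were tested. Those lower were 4 with the replicate block, 3 with the number set as a covariate, 3 in the numbers 5 to 8 alone, and 2 in edgeR, in edgeR with the number set and in DESeq2. On the recovered reads edgeR called 1928 of all tested genes and DESeq2 2197, against 1982 in limma, and each called 3 members as higher. The members whose difference between the sets was called were 5, and 3 by eBayes without trend. The log2 fold change of *Dbx2* was 1.26, and 0.54 in the numbers 1 to 4 alone, where it was not called. Leaving out each sample in turn gave 3 to 4 members higher, 0 to 2 lower, 14 to 18 other pathway genes higher, 1 to 2 lower, 2 to 5 members with a called difference and 1.12 to 1.47 for *Dbx2*. The cause of these shifts was not tested.

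Besides *Stat2*, *Rnf213* and *B2m*, the marker *Sox2* and the other pathway genes already counted, the replicate block changed no call of a named gene. *Tap1* and *Ifitm2* stayed called as higher in all alternatives and without any 1 sample. Among the members and the named pathway genes, sign changes were seen only in genes that were not called in either fit. In the numbers 1 to 4 alone the log2 fold change was -0.068 for *Ifit3*, 0.068 for *Parp9*, 0.67 for *Parp14*, 0.043 for *Nmi*, 0.18 for *Gbp3*, 0.0091 for *Psmb8*, -0.048 for *H2-D1* and 0.16 for *Jak2*. In the numbers 5 to 8 alone it was -0.12 for *Irf3*, -0.15 for *Ifi27*, -0.16 for *Samhd1*, -0.38 for *Gbp2*, -0.010 for *Tapbp*, 0.23 for *H2-K1*, -0.23 for *Ifngr1* and 0.0067 for *Jak1*. *Parp14* was at 0.0052 with median-of-ratios scaling, 0.0043 with TMM, 0.022 in edgeR and 0.019 in DESeq2, and *Jak2* at 0.00026 with median-of-ratios scaling, 0.026 in edgeR, 0.012 in edgeR with the number set and 0.026 in DESeq2. Without 1 sample the values ran from -0.035 to 0.069 for *Irf3*, -0.10 to 0.46 for *Ifit3*, -0.0042 to 0.076 for *Samhd1*, -0.26 to 0.23 for *Parp14*, -0.042 to 0.48 for *Gbp2*, -0.11 to 0.017 for *Gbp3*, -0.38 to 0.0081 for *Psmb8*, -0.23 to 0.021 for *H2-K1* and -0.074 to 0.055 for *Jak2*. Depth limits the 9 members under the filter and those near 3 reads.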

Other observations

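Within 500 kb of *Ifit2*, 9 other genes were tested, and 1 was called, against 15.8% of all tested genes. This was *Fas*, which encodes a death receptor, as higher in *Dbx2*-NSPCs (mean 2.21 CPM in the *GFP*-NSPCs against 6.32 CPM, log2 fold change 1.44, limma adjusted p = 0.00266). In this window the difference between the sets of numbers was called in 2 of the 9 genes, against 9.44% of all tested genes. A window of 9 genes is too small to compare with these shares. *Lipa*, a lysosomal lipase, was at 1.26 in numbers 1 to 4 and -0.15 in numbers 5 to 8 on the log2 scale, and *Acta2* at 2.72 and -0.22. The mean of *Acta2* was 0.09 CPM in *GFP*-NSPCs, under the mean floor of 3 reads per library, and 1.64 CPM in *Dbx2*-NSPCs. Within 500 kb of *H2-D1* 37 other genes were tested, and *H2-Q7* (1.06) and the collagen receptor *Ddr1* (0.40) were called as higher. The share called among the 37 was below the 15.8% of all tested genes.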
